A study of Mus musculus with 12 samples.

Results

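Gene expression in the gastrocnemius, a large calf muscle with mostly fast fibres, was compared between mice that lacked Phf2 in muscle fibres and control mice. Knockout (KO) mice were Phf2 flox/flox;Acta1 Cre+ and control (Ctrl) mice were Phf2 flox/flox;Acta1 Cre-, so both groups carried the floxed alleles and only KO mice carried the Cre transgene. That transgene is named for Acta1, the gene of skeletal muscle actin, whose promoter is active in muscle fibres and not in the vessels, nerves, connective tissue, fat and immune cells that a whole muscle also holds. All mice were male, 4 weeks old and on a C57BL/6 background. RNA-seq of whole muscle gave 3 libraries per genotype, out of 12 in the series, the other 6 being soleus. The comparison covered every gene with a mean of at least 1 TPM (transcripts counted per length and scaled to the same total in each library) over the 6 gastrocnemius libraries, which held for 11911 of 34866 gene IDs. The stated aim of the series was to examine what PHF2 does in skeletal muscle.

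PHF2 belongs to the Jumonji family of demethylases, whose members remove methyl groups from lysines of histones and other proteins. Its PHD finger reads a methylated histone tail at active promoters, and its catalytic domain has been linked to removal of repressive methylation on lysine 9 of histone H3. Muscle fibres of mice at weaning age are still growing, and genes of the embryonic and neonatal programme, such as the developmental myosins and the fetal acetylcholine receptor subunits, have largely been switched off in innervated fibres and can return when nerve contact, membrane integrity or calcium handling is disturbed. Changes are given as log2 fold changes, KO minus Ctrl, on the log2(TPM + 1) scale, which understates changes of genes at low TPM. Calls were made at an adjusted p under 0.05 in limma (Benjamini-Hochberg adjustment over all tested genes), and only called genes are said to have risen or fallen. Nothing in the labels says that the 3 libraries of a group came from separate mice, so p-values measure the spread between these libraries. Values per library are given in the order of library numbers 1, 2 and 3, and means are given ± SD (n = 3). Counts from fits that left out a library follow the order Ctrl 1, Ctrl 2, Ctrl 3, KO 1, KO 2 and KO 3.

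The libraries differed between the genotypes in more than single genes. Genes above 0 TPM numbered 18291 to 18699 in Ctrl and 19676 to 20175 in KO, processed pseudogenes (reverse-transcribed copies of mRNAs) above 0 numbered 1134 to 1293 and 1683 to 1924, and mitochondrially encoded RNA made up 22.01% to 24.1% and 18.1% to 20.7% of TPM. The pseudogene Gm12338 was listed at 0 in the 3 Ctrl libraries and at 99.4 to 194 TPM in the 3 KO libraries, whereas in soleus both genotypes held libraries with and without it. Because these features follow genotype in gastrocnemius, they cannot be told apart from it within this muscle. The soleus libraries were used to gauge them, by the difference between soleus libraries with and without Gm12338 within genotype (called the library shift below) and by a fit of all 12 libraries with a term for that presence. Gm12338 was above 0 in soleus Ctrl 1, Ctrl 3 and KO 2 and at 0 in soleus Ctrl 2, KO 1 and KO 3. Each library shift thus rests on 1 library without it in Ctrl and 1 with it in KO. Soleus KO 3, which enters every shift, had 39.0% mitochondrially encoded RNA, beside 24.5% to 29.6% in the other soleus libraries. Shifts are given below for some genes only, and a gene without one is not thereby free of it. The values keep no read depth, which is unknown here, and in whole muscle fewer cells of a type and less RNA per cell cannot be told apart. The 12 fibre markers summed to 173680 to 183832 TPM in Ctrl and 170279 to 182365 TPM in KO, so the tissue label held in both groups.

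Phf2 itself stood at 9.996, 11.4 and 8.24 TPM in Ctrl and 6.74, 7.61 and 7.003 TPM in KO. All KO libraries were below all Ctrl libraries, and KO averaged 72.1% of Ctrl (exact permutation test, two-sided p = 0.1, the smallest that 3 against 3 allows). In limma it missed the threshold (log2 fold change -0.41, SE 0.118, adjusted p = 0.0601), and it passed in several alternatives, among them correction for GC content and transcript length (adjusted p = 0.0268) and the fit without Ctrl 3 (adjusted p = 0.0243). A value for the whole gene counts transcripts with and without the floxed part alike. Among the 14 other tested genes that lie within 1 Mb of Phf2 on chromosome 13, Card19, a mitochondrial protein with a caspase recruitment domain, was called, at 63.2, 67.7 and 63.5 TPM in Ctrl and 90.1, 102 and 91.3 TPM in KO (log2 fold change 0.53, SE 0.0716, adjusted p = 0.00777). Its groups did not overlap, and its call ended after GC and length correction (adjusted p = 0.0593). Fam120a, the nearest of the 14 upstream of Phf2, stood at 31.6 ± 1.58 (Ctrl) and 30.7 ± 0.376 TPM (KO) (-0.04, adjusted p = 0.714). Its means differed by less than the SD of the Ctrl libraries and by more than that of the KO libraries.

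Among the tested genes, 1110 were higher and 594 lower in KO, which is 9.32% and 4.99% of the 11911 (14.3% together). Of these, 102 and 44 changed more than 2-fold. In all 1704 called genes the 3 KO values lay on one side of the 3 Ctrl values, as they did in 37.7% of all tested genes. Genes higher in KO made up 65.1% of the calls, but this excess depended on how libraries were scaled: the share was 50.0% after median-ratio scaling, 48.3% after rescaling without mitochondrially encoded genes, 45.8% after quantile normalization and 53.9% after correction for GC content and transcript length. Without Ctrl 1, 2 and 3 in turn, 398, 548 and 960 genes were higher and 165, 233 and 636 lower, and without KO 1, 2 and 3 it was 716, 382 and 586 higher and 383, 165 and 235 lower.

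**Figure D1:**
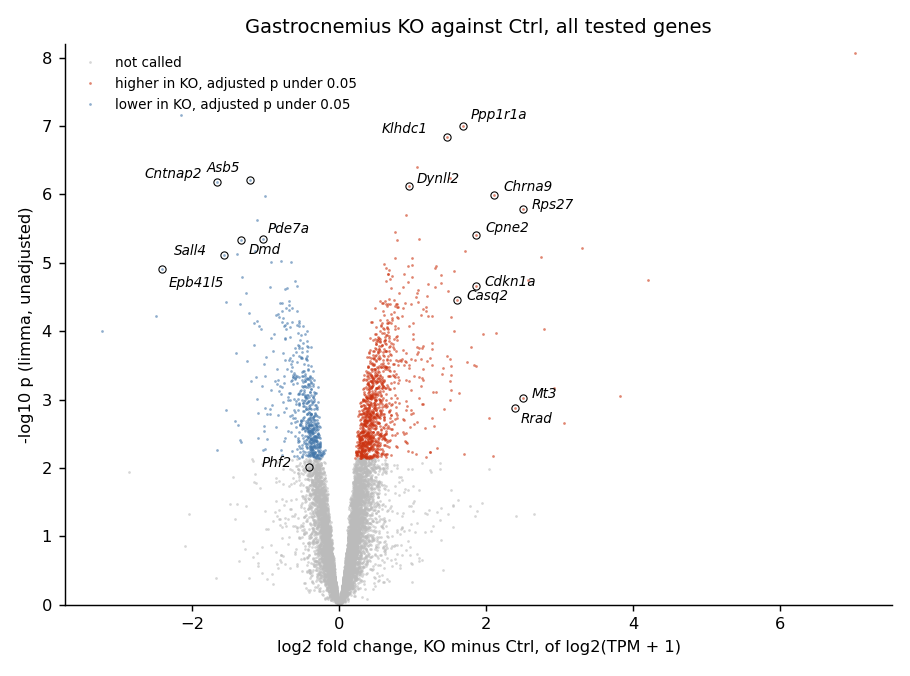
Each point is a tested gene, with its log2 fold change (KO minus Ctrl, log2(TPM + 1) scale) on the x axis and the unadjusted limma p on a -log10 axis. Of 11911 genes, 1110 in red were called higher and 594 in blue lower, and circled genes are named in the text.

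The share of genes called differed with the composition of their transcripts. In the lowest tertile of transcript GC content, 3.46% of genes were higher and 10.6% lower in KO. In the highest tertile 14.99% were higher and 0.910% lower. By transcript length, 14.6% of the shortest tertile were called higher and 4.37% lower against 5.25% and 6.19% in the longest tertile. The share called also rose with level, from 6.89% of genes at 1 to under 5 TPM to 34.7% of the 75 most abundant genes. Of 236 tested processed pseudogenes 25% were called, against 14.1% of protein-coding genes. After correction for GC content and length, 646 genes were higher and 552 lower. In the fit of all 12 libraries, soleus included, 281 were higher and 282 lower. With the Gm12338 term added to that fit, 5 were higher and 8 lower (1162 genes at an unadjusted p under 0.05), and 1540 of the 1704 called genes kept their direction. The term equals genotype within gastrocnemius, so its size was set by the soleus libraries alone. A call lost with it therefore need not mean a smaller change.

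**Figure D2:**
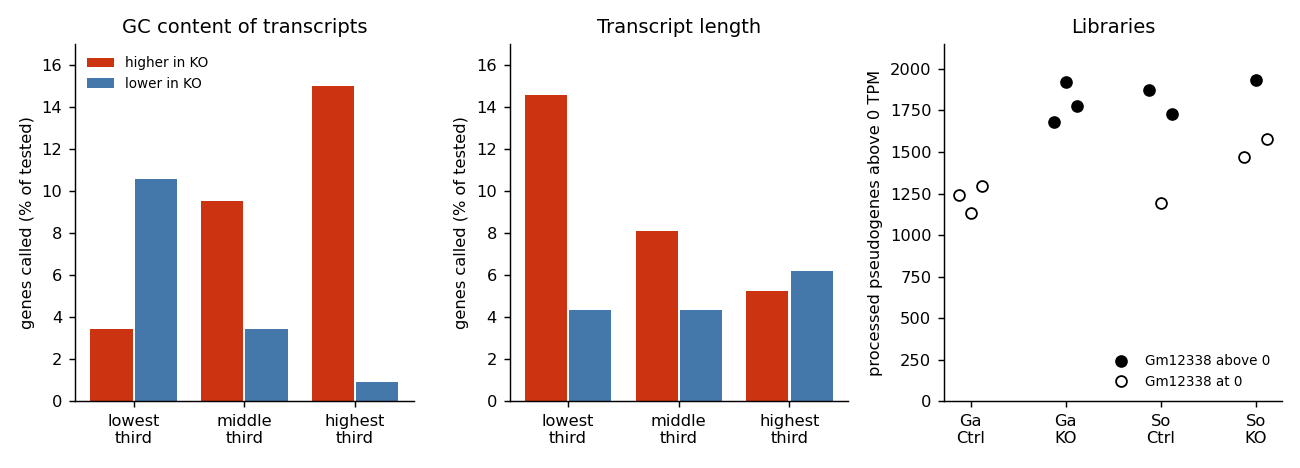
The left and middle plots show the share of tested genes called higher (red) and lower (blue) in KO by tertiles of transcript GC content and of transcript length. In the right plot each point is a library of gastrocnemius (Ga) or soleus (So), with the number of processed pseudogenes above 0 TPM on the y axis, and filled points are libraries in which Gm12338 was above 0, as in the 3 gastrocnemius KO libraries at 1683 to 1924.

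The 13 genes called with the Gm12338 term as well were Klhdc1, Chrna9, Atp1b4, Cda and Ppif, which rose, and Cntnap2, Dmd, Rps6ka2, Asb14, Fgf13, Pde7a, Acsl6 and Tmem64, which fell. All 13 also kept their call when each gastrocnemius library was left out in turn and after correction for GC content and length. In 12 of them the 3 soleus KO libraries lay beyond the 3 soleus Ctrl libraries on the same side as in gastrocnemius, with Cntnap2 the exception. The 8 of them that belong to a gene list described below fall in 8 different lists, so with this term no list had more than 1 called member. The soleus libraries entered the fit with the term, so the soleus values of these 13 genes are not independent of how they were chosen.

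Chrna9 encodes a nicotinic acetylcholine receptor subunit best known from cochlear hair cells. Its levels were 0.355, 0.648 and 0.487 TPM in Ctrl and 6.28, 5.64 and 4.49 TPM in KO (log2 fold change 2.11, SE 0.137, adjusted p = 0.00106), so that it was below 1 TPM in every Ctrl library and above 4 TPM in every KO library. In soleus it stood at 0.676, 3.41 and 3.56 TPM in soleus Ctrl and 11.7, 8.31 and 13.4 TPM in soleus KO. Atp1b4, an X-linked member of the sodium pump beta-subunit family that has become a protein of the inner nuclear membrane of muscle in placental mammals, was at 3.65, 3.58 and 5.37 TPM in Ctrl and 11.1, 22.4 and 18.99 TPM in KO (log2 fold change 1.796, SE 0.252, adjusted p = 0.00865). The KO libraries of Atp1b4 spread over a 2-fold range, and the lowest still lay above the highest Ctrl library. Cda, cytidine deaminase of pyrimidine salvage, was at 1.05, 0.647 and 0.924 TPM in Ctrl and 3.88, 6.54 and 3.57 TPM in KO (log2 fold change 1.57, SE 0.201, adjusted p = 0.00706).

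Klhdc1, a kelch-repeat protein that selects substrates for a cullin ubiquitin ligase, was tight within both groups, at 19.5, 20.6 and 19.9 TPM in Ctrl and 61.3, 55.9 and 53.6 TPM in KO (log2 fold change 1.46, SE 0.0722, adjusted p = 0.000341). Ppif, the mitochondrial cyclophilin that regulates the permeability transition pore, was singled out after its values were seen, since it is not among the leading genes by size. It stood at 30.6, 28.6 and 28.5 TPM in Ctrl and 44.5, 48.5 and 44.2 TPM in KO (log2 fold change 0.63, SE 0.0692, adjusted p = 0.00524). Its groups were also apart, by less than those of Klhdc1.

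Dmd, which encodes dystrophin, the link between the actin cytoskeleton and the sarcolemma, was at 29.3, 28.4 and 28.6 TPM in Ctrl and 11.7, 9.05 and 12.02 TPM in KO (log2 fold change -1.33, SE 0.108, adjusted p = 0.00249). The 3 Ctrl libraries of Dmd differed by under 1 TPM, and every KO library was at less than 13 TPM. Rps6ka2, which encodes RSK3, a kinase that ERK activates, was at 36.02, 40.3 and 29.97 TPM in Ctrl and 14.5, 10.8 and 14.9 TPM in KO (log2 fold change -1.34, SE 0.1501, adjusted p = 0.00524). Asb14, a substrate adaptor of cullin ubiquitin ligases that is abundant in muscle, was at 101, 92.8 and 90.02 TPM in Ctrl and 41.7, 30.2 and 41.1 TPM in KO (log2 fold change -1.32, SE 0.129, adjusted p = 0.00387). In both genes KO 2 was the lowest library and no KO library reached a Ctrl library.

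Fgf13, an intracellular FGF homologue that binds voltage-gated sodium channels, was at 34.6, 37.1 and 31.2 TPM in Ctrl and 17.8, 11.8 and 15.2 TPM in KO (log2 fold change -1.16, SE 0.143, adjusted p = 0.00641). Pde7a, a phosphodiesterase that degrades cyclic AMP, was at 19.2, 19.6 and 19.4 TPM in Ctrl and 8.13, 9.905 and 8.74 TPM in KO (log2 fold change -1.04, SE 0.0842, adjusted p = 0.00249), and its Ctrl libraries were nearly equal. Acsl6, which activates long-chain fatty acids, was at 32.2, 25.95 and 30.2 TPM in Ctrl and 17.7, 15.7 and 16.4 TPM in KO (log2 fold change -0.78, SE 0.0963, adjusted p = 0.00641). Tmem64, a membrane protein reported to interact with the calcium pump SERCA, had more abundant RNA, with 45.6, 44.6 and 41.99 TPM in Ctrl and 23.4, 23.1 and 24.7 TPM in KO (log2 fold change -0.87, SE 0.0659, adjusted p = 0.00218). Cntnap2, a neurexin-family protein that places potassium channels along axons, was at 10.96, 10.2 and 10.6 TPM in Ctrl and 2.77, 2.21 and 2.999 TPM in KO (log2 fold change -1.67, SE 0.102, adjusted p = 0.000856). In soleus Cntnap2 was below 1 TPM in all 6 libraries.

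To let a reader see what lies upstream of genes that moved in opposite directions, the RefSeq promoter windows of 4 of these genes are given, chosen because each has a single window in the RefSeq table and both directions are shown. Each window runs from 250 bases before to 50 bases after a gene's start on GRCm38.p6 (mm10), 5′ to 3′ on the gene's strand, and capitals mark every CANNTG, the E-box recognised by myogenic factors such as MyoD. The window of Chrna9 lies at chr5:65966874-65967173 and that of Atp1b4 at chrX:38315872-38316171, both on the plus strand. In the GENCODE M21 annotation Chrna9 spans chr5:65934921-65977326, so the RefSeq start used for its window lies inside that gene.
Chrna9: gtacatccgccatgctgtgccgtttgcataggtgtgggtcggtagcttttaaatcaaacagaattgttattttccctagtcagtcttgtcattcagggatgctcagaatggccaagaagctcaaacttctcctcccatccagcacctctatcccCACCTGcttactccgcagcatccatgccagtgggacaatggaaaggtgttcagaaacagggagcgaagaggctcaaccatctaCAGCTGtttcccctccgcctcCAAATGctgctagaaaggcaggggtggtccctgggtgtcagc
Atp1b4: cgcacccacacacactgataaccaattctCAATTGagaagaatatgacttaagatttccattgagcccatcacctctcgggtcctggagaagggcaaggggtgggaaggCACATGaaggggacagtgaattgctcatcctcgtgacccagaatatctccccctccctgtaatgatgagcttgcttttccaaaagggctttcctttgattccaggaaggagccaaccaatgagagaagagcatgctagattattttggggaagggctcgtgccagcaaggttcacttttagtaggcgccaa
The window of Asb14 lies at chr14:26894364-26894663 and that of Rps6ka2 at chr17:7169865-7170164, both on the plus strand, and both genes fell.
Asb14: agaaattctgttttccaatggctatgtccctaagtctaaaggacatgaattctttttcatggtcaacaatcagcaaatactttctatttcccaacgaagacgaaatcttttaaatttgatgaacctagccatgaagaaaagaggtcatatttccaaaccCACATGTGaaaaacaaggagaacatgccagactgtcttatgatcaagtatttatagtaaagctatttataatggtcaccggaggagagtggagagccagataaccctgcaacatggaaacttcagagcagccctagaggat
Rps6ka2: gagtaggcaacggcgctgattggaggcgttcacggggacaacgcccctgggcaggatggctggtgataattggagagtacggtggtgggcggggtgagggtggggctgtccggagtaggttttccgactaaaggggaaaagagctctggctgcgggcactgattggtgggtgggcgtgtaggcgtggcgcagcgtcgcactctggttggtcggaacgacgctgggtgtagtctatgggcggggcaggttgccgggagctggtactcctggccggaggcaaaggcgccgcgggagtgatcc
The window of Chrna9 held 3 CANNTG matches, 1 of them CAGCTG, those of Atp1b4 and Asb14 held 2 each, overlapping in Asb14, and that of Rps6ka2, a GC-rich window with 24 CG dinucleotides, held none. Such matches were common: CANNTG occurred in 63.7% of the 11693 windows of 9081 tested genes, in 62.9% of windows of genes that rose and in 64.0% of windows of genes that fell. CAGCTG, a special case of CANNTG that reads the same on both strands, occurred in 15.7%, 16.6% and 17.02%. TATAAA, searched on both strands, occurred in 7.29%, 7.43% and 9.83%. The median GC content of the windows was 60.7% in all 3 sets, in contrast to the transcripts themselves, whose GC content set apart the genes that rose from those that fell.

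Beyond these, the 25 largest rises and 25 largest falls among named genes are shown library by library in the plot of leading genes, with 37 of the 50 called without each library in turn, 49 after GC and length correction and 10 with the Gm12338 term. Predicted genes, Riken clones and pseudogenes were passed over in 27 places among the rises and 14 among the falls. Ppp1r1a, an inhibitor of protein phosphatase 1 that is switched on by protein kinase A, had the smallest p of the named genes, with 27.1, 30.9 and 32.2 TPM in Ctrl and 99.8, 102 and 95.5 TPM in KO (log2 fold change 1.69, SE 0.0791, adjusted p = 0.000297). Each genotype's libraries lay within 7 TPM of each other, with a gap of over 60 TPM between the genotypes. Cpne2, a copine that binds membranes in response to calcium, was at 8.95, 6.602 and 8.72 TPM in Ctrl and 28.2, 38.2 and 29.9 TPM in KO (log2 fold change 1.86, SE 0.148, adjusted p = 0.00249). Cdkn1a, the cell-cycle inhibitor p21 and a target of p53, was at 11.4, 10.4 and 8.96 TPM in Ctrl and 37.3, 53.2 and 31.1 TPM in KO (log2 fold change 1.85, SE 0.1895, adjusted p = 0.00428). Dusp26, a dual-specificity phosphatase, was at 17.9, 12.5 and 7.98 TPM in Ctrl and 38.1, 32.9 and 39.7 TPM in KO (log2 fold change 1.52, SE 0.247, adjusted p = 0.0124). The Ctrl libraries of Dusp26 varied 2-fold, and the KO libraries lay between 32 and 40 TPM.

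Tiam1, an exchange factor for the small GTPase Rac, was at 4.18, 5.25 and 3.54 TPM in Ctrl and 11.9, 12.3 and 12.1 TPM in KO (log2 fold change 1.32, SE 0.122, adjusted p = 0.00358). Mpp3, a membrane-associated guanylate kinase scaffold, was at 10.03, 10.8 and 14.8 TPM in Ctrl and 32.1, 31.98 and 32.6 TPM in KO (log2 fold change 1.38, SE 0.134, adjusted p = 0.00387). In both the KO libraries were nearly identical while the Ctrl libraries varied more. Cilp, a matrix protein of cartilage and connective tissue, was at 21.97, 16.8 and 23.1 TPM in Ctrl and 49.9, 55.1 and 50.5 TPM in KO (log2 fold change 1.299, SE 0.121, adjusted p = 0.00362). Ehd4, which shapes endosomal membranes, rose from 19.01 ± 0.845 to 33.6 ± 0.357 TPM, and Cacnb3, a cytosolic beta subunit of voltage-gated calcium channels, from 11.6 ± 0.965 to 25.6 ± 1.79 TPM. Snurf, an imprinted reading frame on the same transcript as Snrpn and hence uncertain as a value of its own, rose from 3.06 ± 1.18 to 9.91 ± 0.163 TPM. Each of these 6 kept its call without each library and lost it with the Gm12338 term. With that term their log2 fold changes were 1.15, 1.35, 1.10, 0.83, 0.91 and 1.74, in the order named.

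Some of the largest changes varied widely between KO libraries, lost their call without a library or had a counterpart between soleus libraries. Mt3, a metallothionein that binds zinc and copper, was at 3.67, 5.61 and 5.598 TPM in Ctrl and 27.8, 70.6 and 16.8 TPM in KO (log2 fold change 2.498, SE 0.463, adjusted p = 0.01697), with KO 2 several times above KO 3, and its call ended without Ctrl 1. Rrad, which binds the beta subunits of calcium channels and limits their current, ranged more widely in KO, with 2.37, 1.695 and 2.201 TPM in Ctrl and 6.26, 17.8 and 29.9 TPM in KO (log2 fold change 2.39, SE 0.4705, adjusted p = 0.0202), and lost its call without Ctrl 1, Ctrl 2 or KO 2. Pcbd1, a dehydratase that recycles tetrahydrobiopterin, rose from 1.21 ± 0.207 to 5.69 ± 3.08 TPM and lost its call without Ctrl 1 or Ctrl 2. Rps27, a ribosomal protein with near-identical copies, changed by 2.497 (log2) with a library shift of 0.83 between soleus libraries with and without Gm12338, Pet117, a cytochrome oxidase assembly factor, by 1.41 with 2.25, the mitochondrial mt-Atp8 by 1.74 with 1.25, and Snrpd3, a core protein of spliceosomal particles, by 1.503 with 0.702. The intronless copy Rps27rt went the other way from Rps27, falling from 1132 ± 25.7 to 883 ± 61.8 TPM (-0.36, adjusted p = 0.0179), and how reads were shared out between them is not given in the sources used here. Rps27rt lost its call without Ctrl 1, Ctrl 2 or KO 2.

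**Figure D3:**
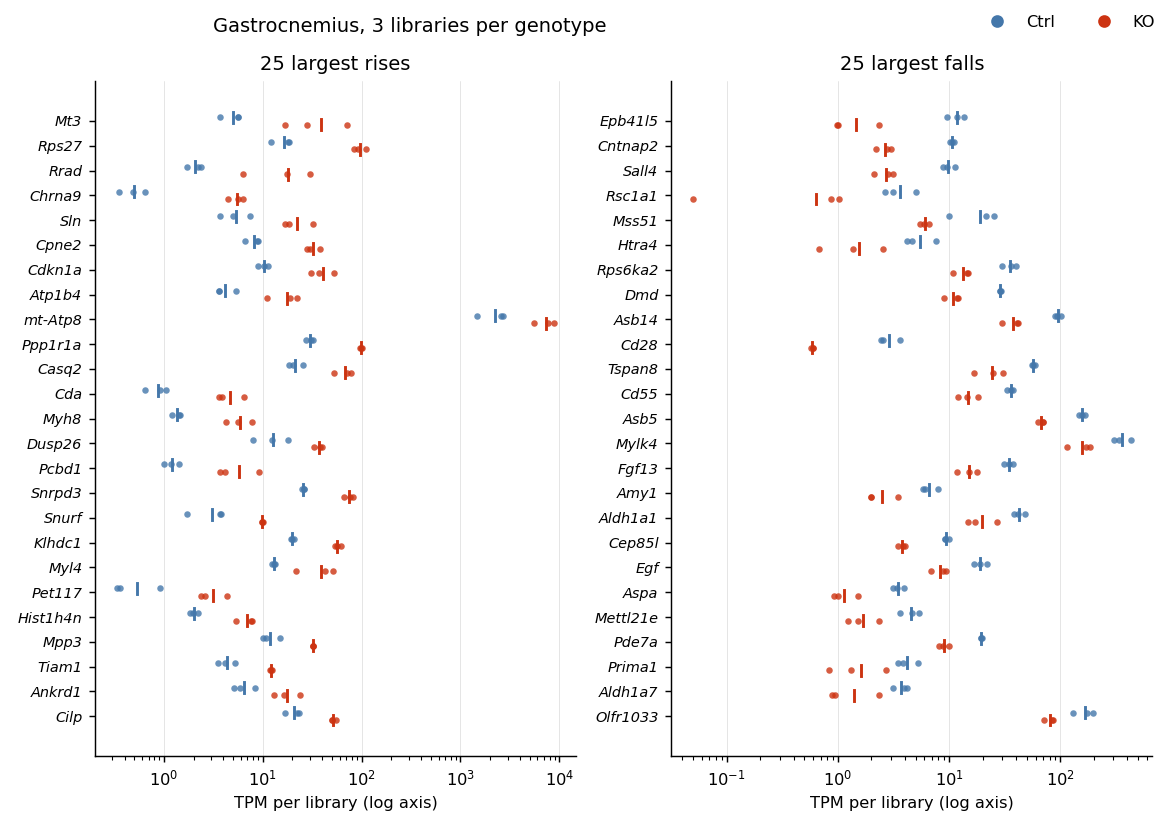
TPM per library on a log axis for the 25 largest rises (left) and 25 largest falls (right) among named called genes, with points for the 3 Ctrl (blue) and 3 KO (red) libraries and a bar at each group's mean. A value of 0 (Rsc1a1 in KO 2) is drawn at 0.05, and in each gene the groups do not overlap.

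The largest falls included membrane, secreted and enzyme genes. Sall4, a zinc-finger transcription factor of stem cells, was at 11.4, 8.75 and 9.51 TPM in Ctrl and 3.12, 2.12 and 2.82 TPM in KO (log2 fold change -1.56, SE 0.137, adjusted p = 0.00337). Egf, the epidermal growth factor precursor, was at 16.6, 18.9 and 21.7 TPM in Ctrl and 8.75, 6.81 and 9.29 TPM in KO (log2 fold change -1.12, SE 0.137, adjusted p = 0.00641). Tspan8, a tetraspanin of the cell surface, was at 59.7, 56.99 and 55.3 TPM in Ctrl and 30.6, 16.9 and 24.6 TPM in KO (log2 fold change -1.26, SE 0.1896, adjusted p = 0.01003). None of these groups overlapped, and all 3 calls held without each library. Cd55, which protects cells from complement, was at 37.5, 36.1 and 33.3 TPM in Ctrl and 14.4, 18.3 and 11.9 TPM in KO (log2 fold change -1.22, SE 0.143, adjusted p = 0.00579). Asb5, another abundant Asb adaptor, was at 157, 165 and 147 TPM in Ctrl and 69.3, 62.5 and 69.7 TPM in KO (log2 fold change -1.21, SE 0.0732, adjusted p = 0.000856). The KO libraries of Asb5 were within 8 TPM of each other and all below 70 TPM.

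Mylk4, a kinase of the myosin light chain kinase family, was the most abundant of the largest falls, at 428, 337 and 302 TPM in Ctrl and 169.6, 114 and 185 TPM in KO (log2 fold change -1.196, SE 0.201, adjusted p = 0.0129). Cep85l, a centrosomal protein, fell from 9.39 ± 0.431 to 3.79 ± 0.268 TPM, Aspa, which cleaves acetylaspartate, from 3.47 ± 0.418 to 1.15 ± 0.315 TPM, and Abcg2, an efflux transporter of urate and drugs, from 15.4 ± 0.686 to 8.41 ± 0.315 TPM. Cd28, a costimulatory receptor of T cells, fell from 2.88 ± 0.654 to 0.5904 ± 0.0142 TPM, while the defining T-cell marker Cd3e was below 3 TPM in every library. Aldh1a1, a dehydrogenase that makes retinoic acid, fell from 42.8 ± 4.87 to 19.7 ± 6.57 TPM and lost its call without Ctrl 1, Ctrl 2, KO 2 or KO 3. Its close paralogue Aldh1a7 fell as well, and reads could have been shared between them. Mss51, a mitochondrial protein of fast muscle, fell from 19.02 ± 8.0001 to 6.02 ± 0.5501 TPM and kept its call in only 1 of the 6 fits that left out a library, the one without Ctrl 2. Epb41l5, which organises polarity at the cell cortex, had the largest fall of the named genes, -2.42 (log2), and a library shift of -2.09, and Cep295, a centriole protein, changed by -0.93 with a shift of -0.84.

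Among the most abundant transcripts, changes were smaller in fold and large in TPM. Cox6a2, a muscle isoform within respiratory complex IV, rose from 1011 ± 127 to 1927 ± 72.4 TPM and Selenow, a selenoprotein of muscle, from 1096 ± 40.5 to 1537 ± 88.5 TPM. Both calls held without each library. The fast troponin genes Tnnt3 and Tnnc2 rose by 0.31 and 0.46, and the fast light chain gene Myl1 and the giant thin-filament gene Neb fell by 0.29 and 0.35 on the log2 scale. Tnnt3 and Tnnc2 lost their calls after correction for GC content and length (adjusted p = 0.116 and 0.07696), and all 4 lost them without Ctrl 1, Ctrl 2 or KO 2 and without at least 1 further library. Tnnt3 also lost its call after median-ratio scaling and after rescaling without mitochondrially encoded genes. The mitochondrially encoded mt-Nd3 fell from 19790.5 ± 924 to 9809 ± 413 TPM. Its library shift in soleus was -0.804, and the shifts of Tnnt3, Tnnc2 and Myl1 were 0.48, 0.41 and -0.27.

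Markers of other cells of the muscle were summed in each library. Satellite cell markers summed to 28.3 to 31.2 TPM in Ctrl and 28.1 to 31.8 TPM in KO, and endothelial markers to 136 to 165 TPM and 135 to 165 TPM, with no member called in either list. Adipocyte markers summed to 286 to 335 TPM in Ctrl and 396 to 599.7 TPM in KO, without overlap. Most of each sum was the fatty acid carrier Fabp4, at 261, 281 and 284 TPM in Ctrl and 406, 394 and 357 TPM in KO. Fabp4 was the 1 of the 6 tested members that rose (0.48, adjusted p = 0.00966). The other adipocyte markers overlapped between the groups, and each was lower in KO 3 than in Ctrl 2. Tendon markers summed to 83.6 to 289.5 TPM and 169.6 to 587 TPM, fibroblast markers to 884 to 1521 TPM and 1276 to 2619 TPM, and macrophage and leukocyte markers to 62.9 to 92.8 TPM and 74.8 to 137 TPM, with overlapping groups and no member called. Of 8 smooth muscle and pericyte markers, Acta2 rose (0.49, adjusted p = 0.0435), with a call that held in only 1 of the 6 fits that left out a library, the one without KO 2, and the erythroid and Schwann cell sums overlapped with no member called. No marker was at 0 in all 6 libraries. The part of these cells in the changes described here was not tested.

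Genes of the denervation, embryonic and p53 lists rose in part. Of 38 measured genes of atrophy ubiquitin ligases and denervation stress, 13 rose and 1 fell, beside 9.32% and 4.99% of all tested genes, with a median log2 fold change of 0.33 against 0.03 over all tested genes. Of 28 embryonic and neonatal muscle genes 9 rose and none fell (median 0.43), and of 27 p53 targets 9 rose and none fell (median 0.12). In the 3 lists 24, 19 and 18 measured members were not called. Named after the calls were seen, these included Chrng, Myog and Myod1 (embryonic) and Mdm2 and Ccng1 (p53). At an unadjusted limma p under 0.05, 0 embryonic genes and 1 p53 target were lower. The lists share members, and the rises in the 3 of them came from 25 different genes. Trim54, a ubiquitin ligase of the sarcomere, was at 202, 201 and 209.5 TPM in Ctrl and 309, 306 and 326 TPM in KO (log2 fold change 0.62, SE 0.0565, adjusted p = 0.00358). Mt2, a metallothionein, was at 28.2, 23.1 and 24.9 TPM in Ctrl and 55.3, 71.5 and 53.1 TPM in KO (log2 fold change 1.20, SE 0.129, adjusted p = 0.00509). Gadd45a, a growth arrest gene that denervation is known to raise, was at 36.96, 40.5 and 50.2 TPM in Ctrl and 91.2, 70.02 and 79.7 TPM in KO (log2 fold change 0.904, SE 0.137, adjusted p = 0.0101). No KO library of these 3 genes fell into the range of Ctrl. The library shift of Trim54 was 0.47, and its call ended in the fit of all 12 libraries.

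Myh8, the perinatal myosin heavy chain, was at 1.201, 1.45 and 1.43 TPM in Ctrl and 5.62, 7.85 and 4.301 TPM in KO (log2 fold change 1.52, SE 0.182, adjusted p = 0.006103) and lay at a low level throughout. Myl4, the embryonic and atrial light chain, was at 13.3, 12.5 and 12.9 TPM in Ctrl and 42.7, 51.95 and 21.8 TPM in KO (log2 fold change 1.43, SE 0.282, adjusted p = 0.0204). Ankrd1, a stretch-responsive titin-binding protein, was at 5.93, 5.08 and 8.35 TPM in Ctrl and 12.9, 23.6 and 16.6 TPM in KO (log2 fold change 1.31, SE 0.234, adjusted p = 0.0153). Igf2, a fetal growth factor, was at 38.5, 40.5 and 56.2 TPM in Ctrl and 89.97, 77.8 and 124 TPM in KO (log2 fold change 1.09, SE 0.201, adjusted p = 0.01697). The calls of Myl4 and Igf2 ended without Ctrl 1 or Ctrl 2, that of Myl4 also without KO 1 or KO 2, and that of Ankrd1 without Ctrl 1. Among p53 targets, Aen, an exonuclease of apoptosis, rose from 20.9 ± 0.987 to 33.6 ± 2.04 TPM and Bax, which permeabilises mitochondria, from 20.03 ± 1.09 to 33.7 ± 3.23 TPM, both without overlap. Leaving out 1 library, the members called higher numbered 6, 7, 12, 9, 7 and 10 in the denervation list, 1, 2, 7, 7, 5 and 8 in the embryonic list and 5, 6, 10, 8, 4 and 5 in the p53 list. In the fit of all 12 libraries 8, 6 and 5 were called higher. After GC and length correction they numbered 10, 6 and 7.

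At the synapse, 4 of 18 measured genes of acetylcholine receptors and their clustering pathway rose and 1 fell (median 0.26). Over all tested genes 9.32% rose and 4.99% fell. Besides Chrna9, the adult and fetal receptor subunit Chrna1 was at 7.66, 7.82 and 10.1 TPM in Ctrl and 12.2, 17.3 and 12.5 TPM in KO (log2 fold change 0.65, SE 0.156, adjusted p = 0.0354), and the adult subunit Chrne at 19.9, 22.04 and 20.3 TPM in Ctrl and 25.6, 25.01 and 26.4 TPM in KO (log2 fold change 0.29, SE 0.0688, adjusted p = 0.0332). Musk, the receptor kinase through which agrin clusters the receptors, was lower, at 3.06, 3.101 and 3.396 TPM in Ctrl and 2.03, 2.27 and 1.37 TPM in KO (log2 fold change -0.55, SE 0.136, adjusted p = 0.0398). Of these, Chrna9 was called without each library, Chrna1 only without Ctrl 3, and Chrne and Musk in none of the 6 fits that left out a library. The rises numbered 1, 1, 3, 2, 1 and 1 with 1 library left out and 3 in the fit of all 12 libraries. The fetal subunit Chrng, named after the calls were seen, was measured and not called.

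Membrane genes moved in both directions. In the dystrophin complex and its glycosylation pathway, 3 of 30 measured genes rose and 3 fell (median 0.01), beside 9.32% and 4.99% of all tested genes. The share that rose was close to that over all genes. B3galnt2, a glycosyltransferase that modifies alpha-dystroglycan, was at 42.8, 42.6 and 38.96 TPM in Ctrl and 21.5, 24.1 and 25.9 TPM in KO (log2 fold change -0.77, SE 0.0861, adjusted p = 0.00524), on the same side as Dmd. Sgca, the alpha-sarcoglycan of the same complex, went the other way, with 211, 207 and 226 TPM in Ctrl and 312, 290.2 and 340.2 TPM in KO (log2 fold change 0.55, SE 0.0761, adjusted p = 0.00855) and a library shift of 0.55. In membrane repair and the costameres, 7 of 24 rose and 2 fell (median 0.11). Trim72, also known as MG53, which seals membrane tears, was at 113, 123 and 123 TPM in Ctrl and 183, 196 and 197 TPM in KO (log2 fold change 0.68, SE 0.0644, adjusted p = 0.003697). Dysf, dysferlin of the same repair machinery, was at 18.8, 19.4 and 20.1 TPM in Ctrl and 28.5, 31.5 and 28.5 TPM in KO (log2 fold change 0.58, SE 0.0711, adjusted p = 0.00641). Ano5, a membrane scramblase whose loss causes a muscular dystrophy in people, was lower, at 31.98, 35.4 and 30.8 TPM in Ctrl and 19.8, 20.7 and 19.5 TPM in KO (log2 fold change -0.68, SE 0.0749, adjusted p = 0.00524). These calls held without each library in turn. With 1 library left out the repair list had 3, 4, 5, 7, 2 and 6 rises, after GC and length correction it had 4, and in the fit of all 12 libraries, where Trim72 lost its call, 1. The dystrophin list had 1 rise and 2 falls in that fit.

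Pumps and channels that set the fibre's ionic state were also split. Of 13 sodium pump genes 4 rose and none fell, nor was any lower at an unadjusted limma p under 0.05 (median 0.31). The shares over all tested genes were 9.32% and 4.99%. After Atp1b4, the largest change was in Fxyd6, a small modulator of the pump, at 21.8, 20.8 and 17.3 TPM in Ctrl and 31.6, 29.1 and 29.6 TPM in KO (log2 fold change 0.58, SE 0.0969, adjusted p = 0.0129). The library shift of Fxyd6 was 0.43, and its call ended in the fit of all 12 libraries. Fxyd1, the abundant phospholemman, was at 865, 834 and 999 TPM in Ctrl and 1207, 1397 and 1420.2 TPM in KO (log2 fold change 0.58, SE 0.0957, adjusted p = 0.0127), with its call ending after GC and length correction and without Ctrl 1 or KO 2. The rises numbered 2, 4, 5, 4, 2 and 3 when 1 library was left out and 1 in the fit of all 12 libraries. Among 15 sodium and chloride channel genes, Clcn3, a chloride-proton exchanger of endosomes, fell with Fgf13, at 12.8, 11.1 and 10.5 TPM in Ctrl and 6.87, 6.36 and 6.36 TPM in KO (log2 fold change -0.72, SE 0.09202, adjusted p = 0.00677). Of 19 potassium channel genes 4 fell and 1 rose (median -0.16), and with 1 library left out the falls numbered 1, 0, 3, 1, 1 and 0 and in the fit of all 12 libraries 3.

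Calcium handling genes included some of the larger rises. Of 22 measured calcium pumps, their peptide regulators and store proteins 6 rose and 1 fell (median 0.16), beside 9.32% and 4.99% of all tested genes. Casq2, the calsequestrin that prevails in heart, was at 18.5, 20.1 and 25.6 TPM in Ctrl and 52.03, 78.7 and 71.9 TPM in KO (log2 fold change 1.61, SE 0.176, adjusted p = 0.00524). Sln, sarcolipin, a peptide that inhibits the calcium pump, was at 3.66, 7.49 and 5.02 TPM in Ctrl and 16.7, 32.1 and 18.5 TPM in KO (log2 fold change 1.86, SE 0.288, adjusted p = 0.0107). In both genes every KO library was more than 2-fold above the highest Ctrl library. Hrc, a histidine-rich calcium binder of the sarcoplasmic reticulum, was at 435, 450.2 and 423 TPM in Ctrl and 546, 618 and 631 TPM in KO (log2 fold change 0.45, SE 0.0722, adjusted p = 0.0116). Calm3, a calmodulin gene, rose, with 159.6, 162 and 168 TPM in Ctrl and 270.5, 243 and 249.9 TPM in KO (log2 fold change 0.64, SE 0.0635, adjusted p = 0.00412), and its library shift in soleus was 0.61. Its call and that of Hrc, whose shift was 0.59, ended in the fit of all 12 libraries. The list had 4, 5, 6, 5, 4 and 5 rises with 1 library left out, 5 after GC and length correction and 2 in the fit of all 12 libraries.

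Of 24 calcium release and entry genes, 3 rose and 4 fell (median 0.01), beside 9.32% and 4.99% of all tested genes. Cacna2d1, the accessory subunit of the voltage sensor of excitation-contraction coupling, was at 89.4, 89.04 and 90.3 TPM in Ctrl and 51.9, 51.3 and 59.6 TPM in KO (log2 fold change -0.72, SE 0.0737, adjusted p = 0.00428), with Ctrl libraries that differed by about 1 TPM. Itpr1, a calcium release channel opened by inositol trisphosphate, was at 6.899, 7.12 and 6.09 TPM in Ctrl and 4.26, 4.3001 and 3.58 TPM in KO (log2 fold change -0.61, SE 0.0984, adjusted p = 0.0122). Stim2, a calcium sensor of the reticulum, was at 20.01, 19.1 and 16.6 TPM in Ctrl and 12.8, 12.2 and 10.6 TPM in KO (log2 fold change -0.605, SE 0.101, adjusted p = 0.0128), its call ending without Ctrl 1. Ryr3, the ryanodine receptor of neonatal muscle, was below 1 TPM in every Ctrl library and above it in every KO library, at 0.222, 0.254 and 0.294 TPM in Ctrl and 1.74, 2.76 and 1.32 TPM in KO (log2 fold change 1.198, SE 0.181, adjusted p = 0.01003). It was below the filter without KO 1 or KO 2 and was called without each of the other libraries. Leaving out 1 library, the list had 1, 1, 2, 2, 0 and 2 rises and 2, 3, 3, 3, 3 and 3 falls, and in the fit of all 12 libraries 2 rises and 2 falls.

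Signalling genes around cyclic AMP, phosphatases and ERK changed in both directions. Of 39 genes of cyclic AMP and protein kinase A 4 rose and 4 fell (median -0.01), beside 9.32% and 4.99% of all tested genes. The share that rose was close to that over all genes. Pkia, the heat-stable inhibitor of protein kinase A, was at 272, 288 and 246 TPM in Ctrl and 150.1, 119 and 166 TPM in KO (log2 fold change -0.89, SE 0.128, adjusted p = 0.00897), while Prkaca, the main catalytic subunit, was at 79.6, 81.7 and 82.1 TPM in Ctrl and 102, 112 and 107 TPM in KO (log2 fold change 0.39, SE 0.0614, adjusted p = 0.0109). The other 4 called members, named after their values were seen, were Crtc2, a coactivator of CREB (0.42 on the log2 scale), and Pkig, another inhibitor of the kinase (0.28), which rose, and the adenylyl cyclase gene Adcy9 (-0.51) and Pde4dip, which anchors a phosphodiesterase (-0.37), which fell. Leaving out 1 library, Crtc2 was called without Ctrl 2, Ctrl 3 or KO 1, Pkig without KO 1, Adcy9 without Ctrl 3 or KO 3, and Pde4dip in none of the 6 fits. Inhibitors of the kinase were called in both directions. With 1 library left out the falls numbered 2, 2, 5, 2, 2 and 3 and the rises 2, 3, 3, 4, 2 and 2, and in the fit of all 12 libraries there were 2 falls and 1 rise.

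Of 31 genes of protein phosphatase 1 and calcineurin, 2 rose and 7 fell (median -0.02). Ppp1r3a, which targets protein phosphatase 1 to glycogen, was at 52.4, 46.1 and 43.5 TPM in Ctrl and 24.6, 24.9 and 29.01 TPM in KO (log2 fold change -0.83, SE 0.0982, adjusted p = 0.00602). Ppp1r14c, another inhibitor of that phosphatase, was at 85.9, 92.8 and 91.4 TPM in Ctrl and 58.4, 50.6 and 58.6 TPM in KO (log2 fold change -0.68, SE 0.0785, adjusted p = 0.00555). Rcan1, a calcineurin inhibitor that is itself induced by calcineurin, was higher, at 57.2, 66.8 and 60.1 TPM in Ctrl and 122, 149.9 and 105 TPM in KO (log2 fold change 1.01, SE 0.132, adjusted p = 0.00738). Ppp3cb, a catalytic subunit of calcineurin, was lower, at 106, 107 and 96.1 TPM in Ctrl and 77.97, 66.9 and 77.8 TPM in KO (log2 fold change -0.47, SE 0.0845, adjusted p = 0.0153), its call ending without Ctrl 1 or Ctrl 2 and after GC and length correction. The falls in this list numbered 2, 2, 6, 3, 3 and 4 when 1 library was left out and 4 in the fit of all 12 libraries. In the ERK cascade and its feedback, 5 of 39 rose and 4 fell (median 0.03), beside 9.32% and 4.99% of all tested genes. The 4 falls (Rps6ka2, Egf, Dusp13 and Rps6ka3) held without each library. Dusp13, a phosphatase of muscle, was at 105, 109 and 105 TPM in Ctrl and 80.02, 76.8 and 79.1 TPM in KO (log2 fold change -0.43, SE 0.0556, adjusted p = 0.00708). Rps6ka3, the kinase RSK2, was at 16.6, 16.5 and 16.9 TPM in Ctrl and 10.7, 11.2 and 12.2 TPM in KO (log2 fold change -0.51, SE 0.0735, adjusted p = 0.00903).

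Growth factor genes changed singly. Mstn, myostatin, the inhibitor of muscle growth, was at 38.7, 29.6 and 31.998 TPM in Ctrl and 20.2, 14.3 and 18.8 TPM in KO (log2 fold change -0.88, SE 0.148, adjusted p = 0.0129) and was the only called gene of 36 in myostatin, activin and BMP signalling. Of 43 insulin and IGF genes 2 rose and 2 fell (median 0.04), beside 9.32% and 4.99% of all tested genes. Igfbp5, a binding protein of the insulin-like growth factors, was at 109, 112 and 116 TPM in Ctrl and 171, 199 and 219 TPM in KO (log2 fold change 0.79, SE 0.0946, adjusted p = 0.00609). Grb14, an inhibitor of the insulin receptor, was at 12.4, 11.5 and 7.95 TPM in Ctrl and 5.71, 5.59 and 3.82 TPM in KO (log2 fold change -0.94, SE 0.1903, adjusted p = 0.0222), with a call that ended without Ctrl 1, Ctrl 2, KO 2 or KO 3. Of 39 transcription factors of fibre type and muscle 2 rose and 4 fell (median -0.02). Cbfb, the partner of Runx factors, was at 65.1, 73.2 and 60.6 TPM in Ctrl and 35.2, 30.4 and 44.97 TPM in KO (log2 fold change -0.84, SE 0.144, adjusted p = 0.0135), its call ending without Ctrl 1. Of 35 secreted factors of fibres 4 fell and none rose (1 higher at an unadjusted limma p under 0.05), with Ostn, musclin, at 5.46, 4.98 and 5.58 TPM in Ctrl and 3.596, 2.46 and 2.98 TPM in KO (log2 fold change -0.67, SE 0.1204, adjusted p = 0.0156). Its call ended without Ctrl 1 or KO 3, and the falls in the list numbered 1, 2, 4, 2, 2 and 1 with 1 library left out and 1 in the fit of all 12 libraries.

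Of 16 measured members of the Asb family of ligase adaptors 4 fell and none rose (median -0.21, 1 higher at an unadjusted limma p under 0.05). Over all tested genes 4.99% fell and 9.32% rose. In 9 of the 16 all KO libraries lay below all Ctrl libraries, as they did in 15.5% of all tested genes. After Asb14 and Asb5, Asb10 was at 37.1, 38.8 and 38.6 TPM in Ctrl and 30.3, 29.9 and 31.4 TPM in KO (log2 fold change -0.31, SE 0.0604, adjusted p = 0.0189) and Asb18 at 12.6, 13.3 and 9.92 TPM in Ctrl and 8.41, 7.79 and 7.43 TPM in KO (log2 fold change -0.54, SE 0.116, adjusted p = 0.0265). The calls of both ended without Ctrl 1, Ctrl 2 or KO 2, and that of Asb18 also without KO 3. With 1 library left out the falls numbered 2, 2, 4, 4, 2 and 3, after GC and length correction 5 and in the fit of all 12 libraries 2. Of 35 Kelch-like adaptors, another family of ligase adaptors, 3 fell and none rose (2 higher at an unadjusted limma p under 0.05), and the falls numbered 1, 0, 5, 1, 0 and 3 with 1 library left out and 2 in the fit of all 12 libraries.

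**Figure D4:**
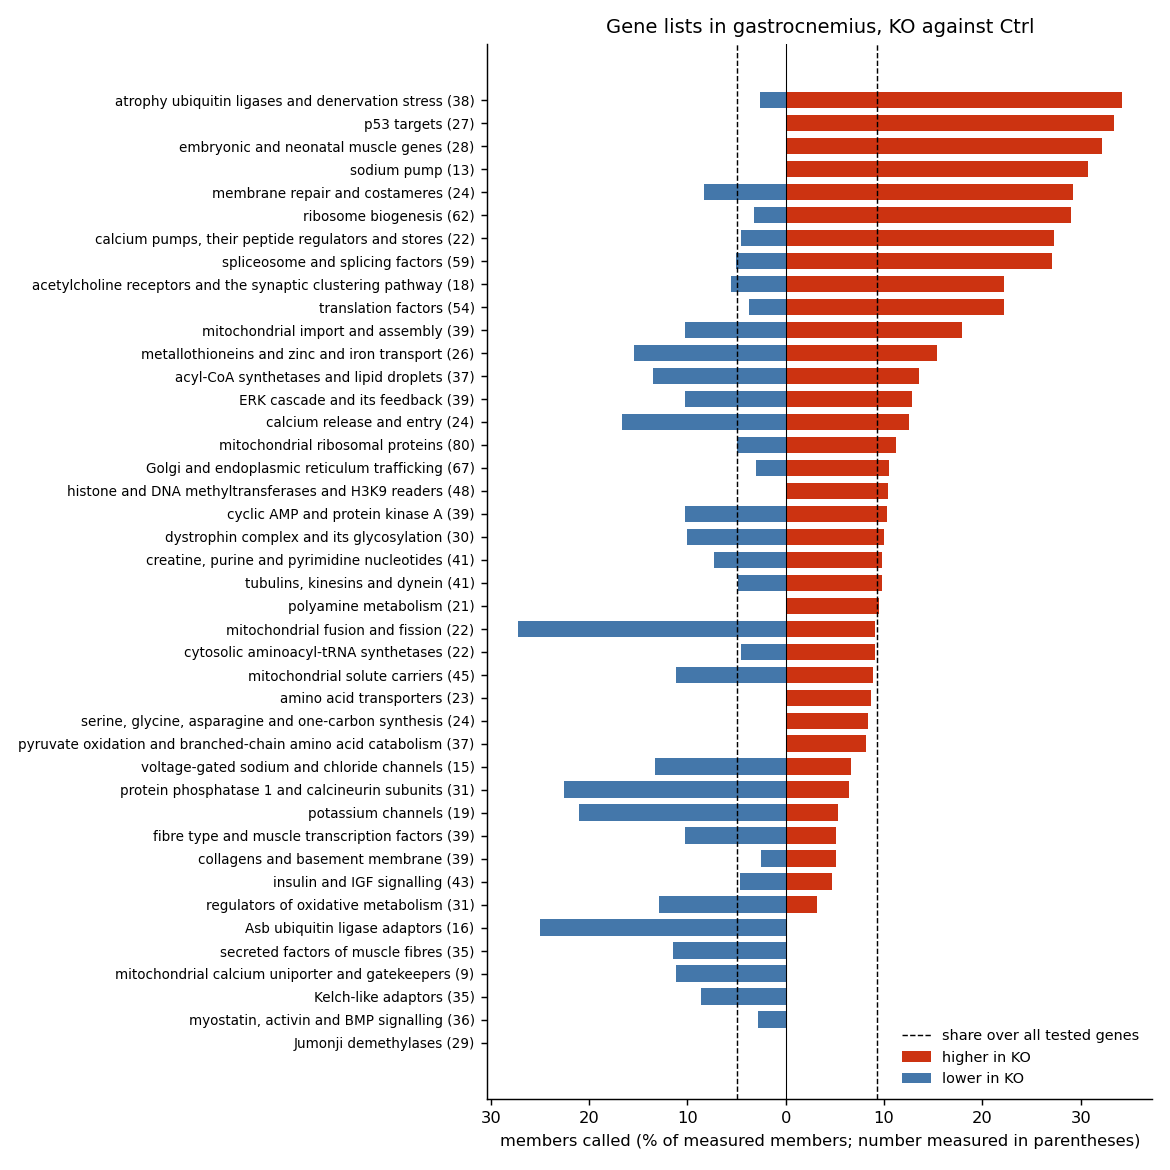
Share of measured members called higher (red, to the right) and lower (blue, to the left) in KO for 42 gene lists, with the number of measured members in parentheses. Dashed lines mark the shares over all tested genes, 9.32% higher and 4.99% lower.

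In energy metabolism, single genes of fuel entry and energy sensing fell, and some genes of mitochondrial import rose. Mpc1, a subunit of the mitochondrial pyruvate carrier, was at 439, 406 and 397 TPM in Ctrl and 281, 241 and 254 TPM in KO (log2 fold change -0.68, SE 0.0764, adjusted p = 0.00529). Slc25a12, the aspartate-glutamate carrier, was at 189, 199 and 189.8 TPM in Ctrl and 143, 125 and 139 TPM in KO (log2 fold change -0.501, SE 0.0705, adjusted p = 0.00868). Slc25a36, a pyrimidine nucleotide carrier, was at 13.4, 15.4 and 13.5 TPM in Ctrl and 8.01, 8.71 and 8.86 TPM in KO (log2 fold change -0.67, SE 0.08396, adjusted p = 0.006696). All 3 calls held without each library. Of 45 mitochondrial solute carriers 4 rose and 5 fell (median -0.10), beside 9.32% and 4.99% of all tested genes. The share that rose was close to that over all genes. Prkaa2, the catalytic alpha subunit of AMP-activated kinase that prevails in muscle, was at 36.97, 36.5 and 33.5 TPM in Ctrl and 24.6, 23.8 and 25.3 TPM in KO (log2 fold change -0.52, SE 0.0684, adjusted p = 0.00743). Tfb2m, a factor of mitochondrial transcription, was at 34.8, 34.7 and 33.4 TPM in Ctrl and 25.5, 24.7 and 24.8 TPM in KO (log2 fold change -0.44, SE 0.0598, adjusted p = 0.00786), with a library shift of -0.398. They belong to 31 regulators of oxidative metabolism, of which 1 rose and 4 fell (median -0.16). Micu3, an enhancer of the mitochondrial calcium uniporter, was the only called gene of its 9, at 13.5, 13.9 and 14.4 TPM in Ctrl and 8.88, 7.99 and 8.75 TPM in KO (log2 fold change -0.65, SE 0.0736, adjusted p = 0.00533).

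In mitochondrial fusion and fission 2 of 22 genes rose and 6 fell, beside 9.32% and 4.99% of all tested genes. Opa1, which fuses inner membranes, was at 28.1, 28.6 and 26.1 TPM in Ctrl and 19.9, 20.3 and 20.7 TPM in KO (log2 fold change -0.42, SE 0.0667, adjusted p = 0.0113). Mief2, which recruits the fission factor, was higher, at 30.8, 33.2 and 36.01 TPM in Ctrl and 48.05, 55.8 and 52.3 TPM in KO (log2 fold change 0.63, SE 0.08603, adjusted p = 0.00827). Leaving out 1 library, the falls numbered 1, 1, 5, 2, 1 and 1, after GC and length correction 1 and in the fit of all 12 libraries 2. Of 39 import and assembly genes 7 rose and 4 fell (median 0.07), with Hspe1, the small mitochondrial chaperonin, at 102, 96.1 and 96.2 TPM in Ctrl and 130.1, 148 and 141 TPM in KO (log2 fold change 0.501, SE 0.06904, adjusted p = 0.008304). Their rises numbered 2, 2, 5, 5, 2 and 2 with 1 library left out, 4 after GC and length correction and 2 in the fit of all 12 libraries. In purine and creatine metabolism, 4 of 41 rose and 3 fell (median 0.08). The share that rose was close to the 9.32% over all tested genes. The purine nucleotide cycle was split between Adssl1, the muscle adenylosuccinate synthase, at 539, 566 and 521 TPM in Ctrl and 764, 801 and 826 TPM in KO (log2 fold change 0.56, SE 0.0613, adjusted p = 0.00524), and Ampd1, AMP deaminase, which stood at 1143, 1104 and 1132 TPM in Ctrl and 892, 789 and 786 TPM in KO (log2 fold change -0.46, SE 0.0678, adjusted p = 0.00989). The groups of both genes were apart, in opposite directions. Adssl1 had a library shift of 0.44 and Ampd1 of -0.18, and both calls ended in the fit of all 12 libraries. In lipid metabolism 5 of 37 acyl-CoA synthetase and lipid droplet genes rose and 5 fell (median 0.06), with Acsl4, a synthetase for arachidonic acid, at 12.6, 9.33 and 8.98 TPM in Ctrl and 5.74, 5.28 and 5.89 TPM in KO (log2 fold change -0.75, SE 0.129, adjusted p = 0.0133), its call ending without KO 2. With 1 library left out the rises in that list numbered 0, 2, 2, 2, 1 and 1 and the falls 2, 2, 5, 3, 1 and 2, and in the fit of all 12 libraries 0 and 3.

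Part of the genes of RNA processing and protein synthesis rose. Of 62 ribosome biogenesis genes 18 rose and 2 fell (median 0.20), beside 9.32% and 4.99% of all tested genes. In 37 of the 62 all KO libraries lay above all Ctrl libraries, as they did in 22.2% of all tested genes. Ncl, nucleolin, was singled out after its values were seen, at 46.8, 46.3 and 46.8 TPM in Ctrl and 68.5, 90.5 and 85.8 TPM in KO (log2 fold change 0.78, SE 0.106, adjusted p = 0.00778), and its library shift in soleus was 0.72. Fbl, the methyltransferase fibrillarin, rose from 17.7 ± 0.922 to 27.5 ± 1.29 TPM, and Rrs1, an assembly factor of the large subunit, from 10.1 ± 0.584 to 16.5 ± 1.35 TPM. The change of Fbl was 0.61 on the log2 scale and its library shift 0.599. Of 59 spliceosome and splicing factors 16 rose and 3 fell (median 0.15). Snrnp70, a protein of the U1 particle, was at 64.8, 66.1 and 76.6 TPM in Ctrl and 116, 133 and 131 TPM in KO (log2 fold change 0.86, SE 0.0887, adjusted p = 0.00428). The library shift of Snrnp70 was 0.597, and its call ended in the fit of all 12 libraries. Mbnl2, a muscleblind splicing regulator, was lower, with 127, 128 and 128 TPM in Ctrl and 83.1, 81.1 and 88.6 TPM in KO (log2 fold change -0.597, SE 0.0593, adjusted p = 0.00409). Its paralogue Mbnl1, named after its values were seen, fell from 117 ± 11.9 to 75.5 ± 7.43 TPM (-0.63, adjusted p = 0.0124) and lost its call without Ctrl 1.

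Of 54 translation factors 12 rose and 2 fell (median 0.12), beside 9.32% and 4.99% of all tested genes. Eif2b2, a subunit of the exchange factor for initiation factor 2, rose from 35.4 ± 1.595 to 58.7 ± 5.85 TPM and Eef1a1, the elongation factor that carries aminoacyl-tRNA, from 504 ± 46.8 to 789 ± 44.1 TPM. Eef1a1 has many processed pseudogenes, so its single value is uncertain. After GC and length correction 11 ribosome biogenesis genes, 12 splicing genes and 8 translation factors were called higher, and in the fit of all 12 libraries 1, 2 and 2. In soleus the median log2 fold changes of the 3 lists were -0.05, -0.01 and -0.01. With 1 library left out the rises numbered 7, 8, 16, 11, 8 and 9 for ribosome biogenesis, 11, 12, 13, 14, 11 and 11 for splicing and 4, 6, 10, 11, 5 and 8 for translation factors.

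Relatives of PHF2 did not move beyond the threshold in the limma fit of the 6 gastrocnemius libraries. None of 29 measured Jumonji demethylases was called, Phf2 included, in limma, and at an unadjusted p under 0.05 1 was higher and 4 were lower. Without Ctrl 3, 2 were called lower, after median-ratio scaling 2 and after GC and length correction 1, with Phf2 among them each time. Of 48 histone and DNA methyltransferases and readers of the lysine 9 mark 5 rose and none fell (median 0.06, 3 lower at an unadjusted limma p under 0.05). That share is close to the one over all genes, and with 1 library left out the rises numbered 1, 1, 5, 3, 0 and 1 and in the fit of all 12 libraries 1. Tet2, which oxidises methylated cytosine, had the smallest p of them, at 4.51, 3.96 and 4.04 TPM in Ctrl and 5.901, 6.66 and 7.096 TPM in KO (log2 fold change 0.55, SE 0.0943, adjusted p = 0.0139), and lost its call without KO 2. Lists whose shares were near those over all genes were mitochondrial ribosomal proteins (9 rose and 4 fell of 80), Golgi and reticulum trafficking (7 and 2 of 67), tubulins and motors (4 and 2 of 41), aminoacyl-tRNA synthetases (2 and 1 of 22), collagens and basement membrane (2 and 1 of 39), pyruvate oxidation and branched-chain catabolism (3 and 0 of 37), polyamine metabolism (2 and 0 of 21), serine and one-carbon synthesis (2 and 0 of 24) and amino acid transporters (2 and 0 of 23). Of 26 metallothionein, zinc and iron genes 4 rose and 4 fell, and with 1 library left out 1, 2, 4, 3, 2 and 4 rose and 0, 1, 4, 1, 1 and 1 fell (2 and 2 in the fit of all 12 libraries). No member of a list of noncoding RNAs passed the filter.

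The gastrocnemius changes were set beside soleus, a slow postural muscle of the same genotypes with libraries of its own. Whether both muscles came from the same mice is not given in the labels. In soleus 9 of 12148 tested genes were called (0.0741%). Among the 25 largest gastrocnemius rises, the 3 soleus KO libraries lay above the 3 soleus Ctrl libraries in 12, where the share over all genes tested in gastrocnemius was 8.84%, and among the 25 largest falls they lay below in 12, where it was 7.74%. The median soleus change was 0.61 for those rises and -0.86 for the 17 falls with enough expression in soleus to be fitted. Over all called genes it was not in the direction of gastrocnemius, at -0.064 for the rises (405 positive and 677 negative in soleus) and 0.016 for the falls (300 positive and 270 negative), beside -0.016 over all tested genes. Over all 1110 genes that rose in gastrocnemius, soleus KO lay above Ctrl in 9.01%, close to the share over all genes, and over the 594 that fell it lay below in 17.3%. Gm12338 was above 0 in soleus Ctrl 1, Ctrl 3 and KO 2, so it did not follow genotype as in gastrocnemius. Soleus KO 3 had 39.0% mitochondrially encoded RNA. How far these library features entered the soleus values and calls was not tested.

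**Figure D5:**
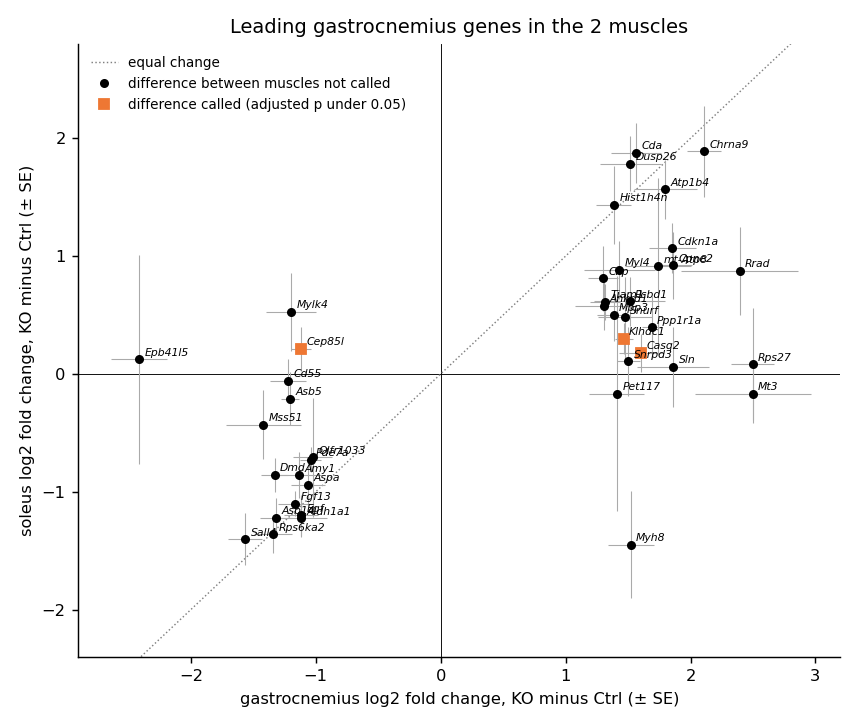
Log2 fold change (KO minus Ctrl, ± SE) in gastrocnemius on the x axis and in soleus on the y axis for those of the 50 leading genes fitted in both muscles, with 3 libraries per group. Chrna9, Cda and Atp1b4 lie near the dotted line of equal change, and squares mark genes whose effect differed between muscles at an adjusted p under 0.05 in limma.

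The difference between the muscles' KO effects was tested in a limma fit that took all 12 libraries as independent. In it, 33 of 12091 genes were called (0.273%), 19 of them with the more positive effect in soleus. Among named genes, Klhdc1 rose in gastrocnemius and stood at 15.3, 14.7 and 15.3 TPM in soleus Ctrl and 17.3, 16.96 and 22.6 TPM in soleus KO (difference -1.16, SE 0.151, adjusted p = 0.0193). Ppp1r3a, lower in gastrocnemius KO, stood at 16.9, 21.04 and 17.6 TPM in soleus Ctrl and 23.2, 19.9 and 24.4 TPM in soleus KO (difference 1.10, SE 0.167, adjusted p = 0.0353). For Cntnap2 the difference was 1.69, SE 0.155, adjusted p = 0.00276, in a muscle that hardly expressed it. These calls rest on all libraries together: without Ctrl 1 to 3 or KO 1 to 3 of gastrocnemius 1, 3, 1, 2, 6 and 2 genes were called, without soleus Ctrl 1 to 3 it was 11, 12 and 1, and without soleus KO 1 to 3 it was 13, 308 and 24.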

How the data were processed

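RNA of whole gastrocnemius and soleus was sequenced in 12 libraries, 3 per muscle and genotype. Per the labels' protocols, RNAiso and NucleoSpin columns gave the RNA, and a NEBNext Ultra II Directional kit the libraries. The authors deposited TPM in a separate table for each muscle, with a column per library that sums to 1000000, and the submitters' processing notes name mm10 as the build. Which aligner, quantifier and annotation they used is not given in the sources used here. Depth, and with it the precision of low values, is unknown because TPM does not keep it.

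Of 34866 gene IDs, 34652 matched the GENCODE M21 annotation, which gave GC content and length. Genes averaging 1 TPM or more over the 6 gastrocnemius libraries were tested on log2(TPM + 1) with limma 3.58.1 in R 4.3.3 (trend in the prior, two-sided, Benjamini-Hochberg adjustment, threshold 0.05), after the same code had been tested on simulated data. For Phf2 an exact permutation test of mean TPM was added. The KO effects of both muscles were compared in 1 fit of 12 libraries with 4 group means, each effect being a difference within 1 table. The alternatives changed the pseudocount (0.1, 0.5) or the filter (none, 5 TPM), or used 3 other scalings, correction for GC content and length (lowess), the prior without trend or robust, the replicate number as a block, all 12 libraries, and each library left out. The fit with a Gm12338 term was added after seeing the data.

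Genes were named by rule: Phf2 and its neighbours within 1 Mb, then called genes, namely the 25 largest rises and falls, the 10 of smallest p per direction, the 10 largest changes in mean TPM per direction, and up to 4 members of smallest p per list. Predicted genes, Riken clones and pseudogenes were passed over, and 1 gene is not reported here. The comparison and the gene lists were chosen with earlier results of these data known. Promoter windows came from RefSeq on GRCm38.p6, and plots were drawn with matplotlib 3.10.9.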

Additional observations from a re-analysis of the deposited data

Results flagged for a closer look

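For 13 of the genes named in the report or on its lists, the difference between the KO effect in soleus and that in gastrocnemius, tested in the limma fit of all 12 libraries, passed an adjusted p of 0.05. Differences are soleus minus gastrocnemius on the log2(TPM + 1) scale, and the named genes were chosen for their gastrocnemius change, which enters each of these differences.

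Of these, 8 were lower in gastrocnemius KO. Cntnap2 differed by 1.69, SE 0.155, adjusted p = 0.00276, and its soleus means were 0.183 TPM in Ctrl and 0.205 TPM in KO. Cbfb, the partner of Runx factors, differed by 1.35, SE 0.181, adjusted p = 0.0215, with soleus means of 18.4 and 26.5 TPM. Cep85l differed by 1.33, SE 0.217, adjusted p = 0.0392, and Cd28, at under 1 TPM on average in both soleus groups, by 1.20, SE 0.202, adjusted p = 0.0434. Ppp1r3a, which targets a phosphatase to glycogen, differed by 1.10, SE 0.167, adjusted p = 0.0353. For Micu3, the enhancer of mitochondrial calcium uptake, the difference was 0.86, SE 0.121, adjusted p = 0.0258, for the scramblase gene Ano5 it was 0.78, SE 0.125, adjusted p = 0.0392, and for Prkaa2, of AMP-activated kinase, it was 0.72, SE 0.123, adjusted p = 0.0434. Cbfb, Cep85l, Ppp1r3a, Micu3, Ano5 and Prkaa2 had log2 fold changes of 0.50, 0.21, 0.27, 0.22, 0.10 and 0.20 in soleus, none of them called there.

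The other 5 were higher in gastrocnemius KO. Klhdc1 differed by -1.16, SE 0.151, adjusted p = 0.0193, and its soleus change was 0.30. Casq2 differed by -1.43, SE 0.252, adjusted p = 0.0495, and in soleus it was more abundant in both groups, with means of 216 and 245 TPM. Cox6a2 differed by -1.26, SE 0.213, adjusted p = 0.0434, with soleus means of 2176 TPM in Ctrl and 1754 TPM in KO. Cacnb3 differed by -1.21, SE 0.194, adjusted p = 0.0392 and Dysf by -0.73, SE 0.116, adjusted p = 0.0392, and their soleus changes of -0.13 and -0.16 were not called.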

How the results depend on the processing

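The count of genes higher in KO, 1110, stayed within 1.5 times under the other pseudocounts, filters, priors and scalings, and was 646 after GC and length correction, 491 with a replicate block and 281 in the fit of all 12 libraries. The count of genes lower, 594, was 342 with no filter, 959 after quantile normalization, 231 with a replicate block and 282 with all 12 libraries. With the Gm12338 term, added after seeing the data, the counts were 5 and 8, and 1162 genes had an unadjusted p under 0.05. Leaving out 1 library gave 382 to 960 higher and 165 to 636 lower genes. Of the 1704 calls, 428 were kept in each of the 6 fits that left out a library, 304 in each of the 12 other alternatives listed in the methods and 241 in both.

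The 33 genes whose KO effect differed between the muscles became 14 with a pseudocount of 0.1, 16 after rescaling without mitochondrially encoded genes, 21 after quantile normalization, 0 with a replicate block (1714 at an unadjusted limma p under 0.05) and 1 to 308 with 1 library left out. Replicate numbers are shared between the groups, but the labels do not say that they mark an animal or a batch. Same-numbered gastrocnemius libraries deviated from their group means with correlations of -0.0128, -0.157 and 0.0263, so the block is not taken as a pairing, and not every library correlated best with its own number.

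Of 126 genes named here, list members named only as uncalled left aside, each kept its direction under every other alternative that tested it. With the Gm12338 term 6 changed sign, none of them called there: Crtc2 to -0.0872, Fam120a to 0.018, Hrc to -0.14, Pet117 to -0.84, Sgca to -0.0044 and Tnnt3 to -0.17. The cause was not tested. In the fit of all 12 libraries 42 of the 126 were no longer called, without Ctrl 1 31, without Ctrl 2 22, without KO 2 23, and after GC and length correction 10. Phf2 stood between 66.6% and 78.0% of Ctrl with 1 library left out, and its limma test also passed with a filter of 5 TPM, after median-ratio scaling, quantile normalization or GC and length correction, and without Ctrl 3 (adjusted p 0.0243 to 0.154 over all alternatives). With 3 libraries per group and no depth, counting error at low TPM cannot be given.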
